A study of Mus musculus with 272 samples.

Results

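The circadian clock genes Arntl, Clock, Per1, Per2, Cry1, Cry2, Nr1d1, Nr1d2 and Dbp were examined together with Rora in mouse muscle stem cells (MuSCs). These 10 genes were chosen by gene name from the 55413 genes, 21938 of them protein-coding, of the GENCODE M21 annotation of mm10. Their promoters (3 kb either side of every annotated start site), gene bodies and 50 kb on each side were searched in 8 peak lists, namely ATAC-seq (open chromatin), H3K4me3 (a histone mark of promoters), H3K27ac (a histone mark found at promoters and enhancers in use) and H3K27me3 (a mark of Polycomb repression), with 2 replicates each. By the study's methods MuSCs were sorted by GFP from hindlimb muscle of Pax7Cas9 mice. In these mice Pax7Cre switches on Cas9 and EGFP from the Rosa26 locus. The methods of the ATAC-seq and histone libraries name no mouse line, so Cas9 in the 8 libraries is inferred from this sorting. The GFP marks cells that express or once expressed Pax7. The labels of these libraries name skeletal muscle and give no strain, age or time of day of collection, nor do the sources used here say whether the mice had received virus. The other samples among the 272 of the series are input libraries and editing experiments and were not analysed here. Rora was itself 1 of the transcription factors that the study cut with single guides.

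The clock is a loop of transcription and delayed repression. ARNTL (also called BMAL1) and CLOCK bind DNA as a pair at E-box sequences and switch on the Per and Cry genes, whose proteins return to the nucleus and block the pair. The same pair drives Nr1d1 and Nr1d2, which encode the nuclear receptors REV-ERB alpha and beta, and these repress Arntl at elements that the activator RORA also binds. Dbp encodes an output activator that binds D-box sequences. In skeletal muscle the clock times metabolism and repair, and many of its transcripts rise and fall over the day, so the levels of these genes depend on when cells are collected.

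A peak is a stretch where reads pile up above background, and its fold enrichment is the height of the pile over the local background as MACS2 gives it. The lists held 140716 and 94382 ATAC-seq peaks (replicates 1 and 2), 20512 and 18001 of H3K4me3, 24209 and 18584 of H3K27ac, and 6064 and 10458 of H3K27me3 on the 21 assembled chromosomes. They carry no read numbers, so the depth is unknown and no interval can be given. With a single condition and 2 replicates there was no contrast to test, and the text sets replicates and genes side by side. Of 13 MuSC markers, 13 had promoter peaks of ATAC-seq and of H3K4me3 in both replicates and 12 had one of H3K27ac. Markers of other cells were open as well, with ATAC-seq peaks in both replicates at 6 of 10 markers of fibro-adipogenic cells, 8 of 10 of endothelium, 7 of 9 of blood, 9 of 10 of myofibres and 8 of 10 of neurons. H3K4me3 was found at 5, 5, 4, 5 and 4 of them, and H3K27ac at 3, 1, 1, 3 and 1.

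All 10 genes had the 3 marks of an active promoter. ATAC-seq peaks, H3K4me3 peaks and H3K27ac peaks lay in the promoter of each gene in both replicates, and no gene had an H3K27me3 promoter peak in both. Among all protein-coding genes the corresponding shares were 67.8% for ATAC-seq, 60.8% for H3K4me3, 46.6% for H3K27ac and 4.81% for H3K27me3, and 46.2% of genes had the 3 active features together.

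By the height of their strongest peak the genes stood higher for acetylation than for opening. To compare a gene with the rest, its strongest promoter peak was given a percentile among all protein-coding genes with a promoter peak in the same list. The median fold enrichment of the 10 genes for H3K27ac was 26.6 in replicate 1 and 20.9 in replicate 2, beside medians of 13.9 and 11.95 over marked protein-coding genes. For H3K4me3 the medians of the 10 genes were 30.5 and 21.3, beside 23.9 and 17.6. For ATAC-seq they were 12.4 and 11.0, below the medians of 13.3 and 12.2 of all marked genes. By H3K27ac 8 of the 10 genes (all but Rora and Dbp) lay at or above percentile 75 in both replicates, where 21.4% of genes did so. By H3K4me3 the number was 4 (Arntl, Clock, Cry1 and Rora), beside 20.4% of genes, and by ATAC-seq it was 0, beside 19%. By the total width of the promoter peaks, 7 of the 10 genes lay at or above percentile 75 in both replicates for each of the 3 features, beside 22.7% of genes for ATAC-seq, 22.3% for H3K4me3 and 21.3% for H3K27ac. Genes with more start sites have more promoter sequence in which width can add up.

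**Figure D1:**
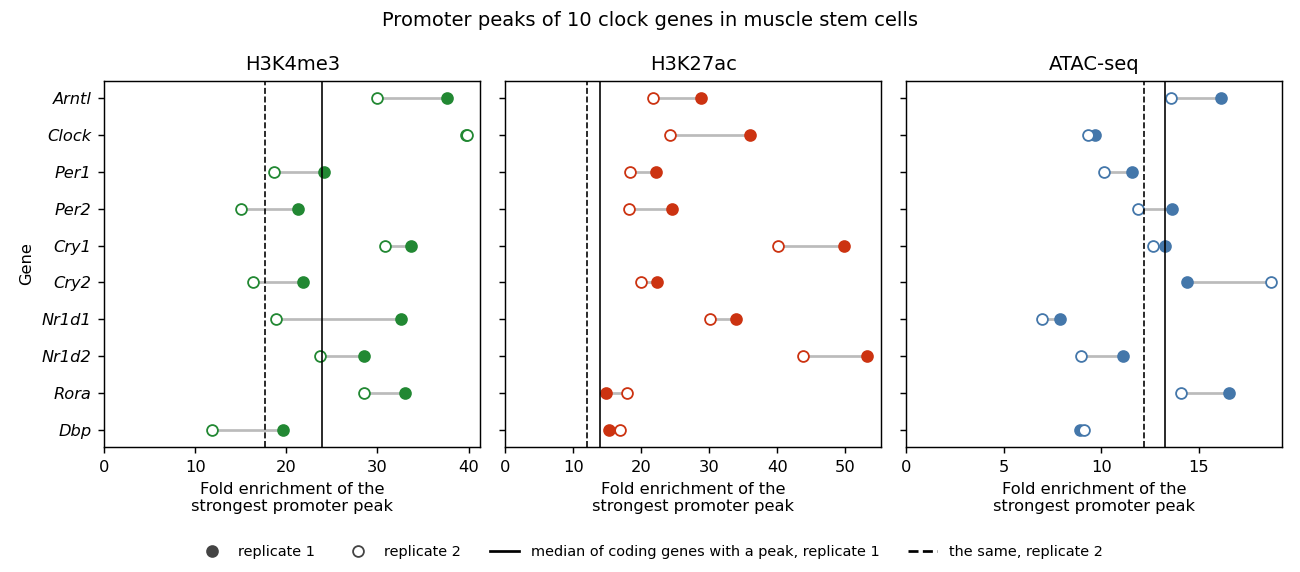
Fold enrichment (horizontal axis, no unit) of the strongest promoter peak of each gene (vertical axis) for H3K4me3, H3K27ac and ATAC-seq, with replicate 1 as filled and replicate 2 as open points joined by a grey line. Vertical lines give the median of protein-coding genes with a promoter peak, solid for replicate 1 and dashed for replicate 2. All 10 genes lie right of both H3K27ac lines, with Nr1d2 highest at 53.3 and 43.8, whereas Nr1d1 has the lowest ATAC-seq values at 7.86 and 6.97.

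Ordered by the lower of the replicates, H3K27ac ran from Nr1d2 and Cry1 through Nr1d1, Clock, Arntl, Cry2, Per1 and Per2 to Dbp and Rora. The replicate ranges of neighbours overlapped in 7 of the 9 neighbouring pairs, with gaps only between Cry1 and Nr1d1 and between Per2 and Dbp. For H3K4me3 they overlapped in 8 of 9 pairs, and only Clock, at the top, stood clear of the next gene. For ATAC-seq they overlapped in 5 of 9 pairs. Replicate 1 gave the higher fold for 9 of the 10 genes by H3K4me3, 8 by H3K27ac and 8 by ATAC-seq, with ratios of replicate 1 to replicate 2 from 0.997 to 1.72, from 0.825 to 1.48 and from 0.77 to 1.24.

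Open chromatin was then read for the short sequences that clock factors are known to bind. The letters searched, on both strands, were CACGTG for the E-box, CACGTT for the variant E-box, TAGGTCA and TGGGTCA for the element shared by ROR and REV-ERB, TTATGTAA and TTACGTAA for the D-box, and TGACGTCA for the cyclic AMP response element (CRE). In the stretches printed with each gene the capitals mark these matches. They are shown because each lies in a promoter ATAC-seq peak found in both replicates. They are written 5′ to 3′ on the strand of the gene from the GRCm38.p6 genome, whose coordinates are those of mm10. Distances count from the first base of the match to the first annotated start site of the gene. A match is a stretch of letters and no record of binding.

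The activators Arntl and Clock had tall promoter marks. Arntl (chr7:113207465-113314126, plus strand, 106.7 kb) had an H3K4me3 fold of 37.6 in replicate 1 and 29.9 in replicate 2, an H3K27ac fold of 28.7 and 21.7, and an ATAC-seq fold of 16.1 and 13.6. The summits of these peaks lay between 224 bp upstream and 401 bp downstream of the nearest start site. Clock (chr5:76209868-76304792, minus strand, 94.9 kb) had the highest H3K4me3 fold of the 10 genes, 39.8 and 39.9, at percentiles 91.3 and 99.5 of marked genes. Its H3K27ac fold was 36.02 and 24.27, and its ATAC-seq fold of 9.68 and 9.29 lay at percentiles 25.9 and 28.6. The antisense transcript Gm7467 starts 84 bp from a Clock start site, so the Clock marks are shared with it.

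The Arntl peak held a single ROR/REV-ERB element 76 bp past the first start site, in the first exon, and an intron of Clock held another at 763 bp with a variant E-box at 793 bp.
Arntl, chr7:113207531-113207557, plus strand: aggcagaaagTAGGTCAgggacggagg
Clock, chr5:76303974-76304049, minus strand: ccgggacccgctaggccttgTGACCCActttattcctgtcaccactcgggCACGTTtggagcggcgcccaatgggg

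Arntl also had marked chromatin far inside the gene. A peak of H3K27ac about 35 kb past the first start site, chr7:113241279-113243070 in replicate 1, had folds of 11.2 and 8.46. ATAC-seq peaks lay under it with folds up to 10.9 and 7.65, and H3K4me3 was called there in replicate 1 only, at a fold of 3.66. It counts as a promoter peak only because it reaches within 3 kb of a start site of a noncoding transcript, from which its summits lie 2738 and 2816 bp, and no peak of H3K4me3 or H3K27ac lay within 1 kb of that start site in either replicate.

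Among the repressors Cry1 stood highest. Cry1 (chr10:85131700-85185064, minus strand, 53.4 kb) had an H3K27ac fold of 49.8 and 40.1, at percentiles 99.6 and 99.5, and an H3K4me3 fold of 33.6 and 30.8. Its acetylation was narrow for its height, with the peaks 1561 and 1287 bp wide, at percentiles 62.5 and 58.4 by total width. Its ATAC-seq fold of 13.28 and 12.65 was close to the median of marked genes. Cry2 (chr2:92403646-92434043, minus strand, 30.4 kb) had lower marks, with H3K27ac at 22.3 and 20.0 and H3K4me3 at 21.9 and 16.3. Its opening differed between replicates, with ATAC-seq folds of 14.4 and 18.7 at percentiles 57.3 and 86.5. The Cry1 promoter held a variant E-box and an E-box 69 and 50 bp upstream of its start, and Cry2 a variant E-box 192 bp upstream.
Cry1, chr10:85185089-85185153, minus strand: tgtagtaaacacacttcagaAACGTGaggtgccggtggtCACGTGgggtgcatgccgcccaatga
Cry2, chr2:92434210-92434255, minus strand: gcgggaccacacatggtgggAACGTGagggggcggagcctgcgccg

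Per1 was broad. Per1 (chr11:69095217-69109960, plus strand, 14.7 kb) carried a single H3K4me3 peak of 5290 bp in replicate 1 and 5205 bp in replicate 2, which covered its first start site and most of the second group of start sites, which begins 3.7 kb downstream, but not the last of them. By total width these stood at percentiles 97.5 and 98.9, while its fold of 24.1 and 18.7 stood at 50.6 and 54.6. H3K27ac was as broad, with main peaks of 5416 and 5091 bp, and its folds of 22.2 and 18.4 stood at percentiles 76.7 and 77.1. The first group of start sites was the more open, with an ATAC-seq fold of 11.6 and 10.1, beside 6.4 and 5.12 at the second. The nearest other gene, Vamp2, starts 5611 bp away. Per2 (chr1:91415982-91459324, minus strand, 43.3 kb) had an H3K27ac fold of 24.5 and 18.2 and an H3K4me3 fold of 21.29 and 15.03, and an ATAC-seq fold of 13.6 and 11.9.

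The open stretches of Per1 held 4 E-boxes, of which 2 lay upstream of the first start site and 1 just before the second group, and a CRE in an intron. The Per2 peak held D-boxes 125 bp upstream and 222 bp downstream of the start and a variant E-box at the start itself.
Per1, chr11:69094863-69094908, plus strand: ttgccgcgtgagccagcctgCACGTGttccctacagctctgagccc
Per1, chr11:69095047-69095092, plus strand: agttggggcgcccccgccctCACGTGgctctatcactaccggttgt
Per1, chr11:69097182-69097229, plus strand: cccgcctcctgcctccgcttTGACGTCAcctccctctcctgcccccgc
Per1, chr11:69098763-69098808, plus strand: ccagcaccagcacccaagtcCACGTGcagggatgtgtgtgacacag
Per2, chr1:91459304-91459459, minus strand: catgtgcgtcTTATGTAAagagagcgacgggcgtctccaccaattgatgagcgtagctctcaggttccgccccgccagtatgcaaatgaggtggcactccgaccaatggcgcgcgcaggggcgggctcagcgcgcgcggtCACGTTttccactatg

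Among the REV-ERB genes Nr1d2 had the taller H3K27ac peak, and Nr1d1 had more H3K27ac by total promoter peak width. These widths were 6009 and 4859 bp at Nr1d1, percentiles 99.2 and 99.1. At Nr1d2 they were 2051 and 1436 bp, percentiles 79.1 and 65.8. Nr1d2 (chr14:18204054-18239127, minus strand, 35.1 kb) had the highest H3K27ac fold of the 10 genes, 53.3 and 43.8, at percentiles 99.7 and 99.8. Its H3K4me3 fold was 28.5 and 23.7. A single ATAC-seq peak of 1403 and 1392 bp spanned its start with a fold of 11.1 and 8.97, at percentiles 34.6 and 26.2, so the opening was wide and not tall. The open stretch held 3 E-boxes and a D-box in an intron, between 449 and 597 bp past the start.
Nr1d2, chr14:18238505-18238698, minus strand: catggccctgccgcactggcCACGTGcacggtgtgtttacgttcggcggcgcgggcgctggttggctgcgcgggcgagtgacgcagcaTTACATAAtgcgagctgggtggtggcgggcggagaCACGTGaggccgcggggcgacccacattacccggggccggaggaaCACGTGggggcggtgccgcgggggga

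Nr1d1 had its strongest acetylation inside the gene. Nr1d1 (chr11:98767932-98775333, minus strand, 7.4 kb) had an H3K27ac fold of 34.0 and 30.2, with the summit 1915 and 1899 bp past the start, whereas the H3K4me3 summit lay 518 and 480 bp past it. H3K4me3 differed most between replicates here, at 32.5 and 18.9. In replicate 1 a single H3K27ac peak of 5729 bp, chr11:98771970-98777698, held this summit and also the start and sequence upstream of it. In replicate 2 a second peak, chr11:98774065-98777467 with a fold of 21.4, lay over the start. Its ATAC-seq peaks were low, with 5 promoter peaks in each replicate and the strongest at 7.86 and 6.97, percentiles 16.1 and 14.2. The strongest lay in introns 1198 bp past the start in replicate 1 and 2306 bp past it in replicate 2. Together the open stretches held 5 E-boxes, 4 of them in introns, 2 variant E-boxes and a D-box.
Nr1d1, chr11:98775662-98775720, minus strand: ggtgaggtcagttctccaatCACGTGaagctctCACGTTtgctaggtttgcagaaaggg
Nr1d1, chr11:98774060-98774179, minus strand: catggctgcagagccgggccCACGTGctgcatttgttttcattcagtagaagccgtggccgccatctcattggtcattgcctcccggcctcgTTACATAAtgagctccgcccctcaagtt
Nr1d1, chr11:98773839-98773899, minus strand: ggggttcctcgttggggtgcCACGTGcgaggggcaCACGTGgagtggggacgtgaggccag
Nr1d1, chr11:98773018-98773063, minus strand: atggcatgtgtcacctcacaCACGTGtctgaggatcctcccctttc

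Dbp was broad, and low in H3K4me3 and ATAC-seq fold but not in H3K27ac. Dbp (chr7:45705088-45710203, plus strand, 5.1 kb) had an H3K4me3 fold of 19.6 and 11.9, at percentiles 38.1 and 27.8. Its H3K27ac fold was 15.3 and 16.9, at percentiles 55.3 and 72.4. In replicate 1 the peaks of both marks covered most of the gene, 4835 bp for H3K4me3 and 4825 bp for H3K27ac. The strongest H3K27ac summits lay 2434 and 2506 bp past the first start site. The strongest ATAC-seq peak lay just upstream of the start, at 8.88 and 9.09, percentiles 21.5 and 27.2. It held 2 ROR/REV-ERB elements, and a small ATAC-seq peak in an intron of the coding transcripts held 2 E-boxes and a variant E-box. Car11 starts 1605 bp from a Dbp start site, so part of these marks lies in the promoter of both genes.
Dbp, chr7:45704834-45704925, plus strand: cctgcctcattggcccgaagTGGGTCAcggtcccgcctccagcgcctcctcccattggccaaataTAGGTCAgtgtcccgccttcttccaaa
Dbp, chr7:45707692-45707850, plus strand: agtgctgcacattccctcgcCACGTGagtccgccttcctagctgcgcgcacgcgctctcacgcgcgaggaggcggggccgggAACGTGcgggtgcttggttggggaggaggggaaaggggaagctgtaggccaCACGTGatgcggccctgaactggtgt

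Rora (chr9:68653786-69388246, plus strand, 734.5 kb) had its marks divided over start sites far apart. At the first group of start sites the H3K4me3 fold was 33.02 in replicate 1 and 26.45 in replicate 2, the H3K27ac fold 14.2 and 9.56, and the ATAC-seq fold 10.7 and 14.1. At the start site 635.9 kb downstream, of a shorter coding transcript, the H3K4me3 fold was 22.2 and 28.5, the H3K27ac fold 14.8 and 17.9, and the ATAC-seq fold 16.53 and 13.98. Acetylation was higher at the downstream site in replicate 2 and nearly equal at the 2 sites in replicate 1. The order by H3K4me3 turned between the replicates. A noncoding start site at 541.8 kb had weak peaks, with H3K4me3 at 4.96 and 3.35 and H3K27ac at 5.37 and 4.05. The first promoter held 1 ROR/REV-ERB element in the first exon, 112 bp past the start.
Rora, chr9:68653888-68653914, plus strand: gagaccccgcTGACCCAggacacgggc

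Counted over all promoter ATAC-seq peaks found in both replicates (41 in replicate 1, 14313 bases), the 10 genes held 15 E-boxes, 1.05 per kb, where the promoter peaks of all protein-coding genes held 0.3 per kb. Variant E-boxes were at 0.489 per kb beside 0.174, ROR/REV-ERB elements at 0.349 beside 0.179, D-boxes at 0.279 beside 0.0171, and CREs at 0.0699 beside 0.063. In the 10 genes these were 7, 5, 4 and 1 matches. By gene, 5 of 10 held an E-box (Per1, Cry1, Nr1d1, Nr1d2 and Dbp) where 19.6% of genes did, and 6 held a variant E-box where 12.8% did. ROR/REV-ERB elements were in 4 genes (Arntl, Clock, Rora and Dbp), beside 12.4% of genes. D-boxes were in 3 (Per2, Nr1d1 and Nr1d2), beside 1.26%, and CREs in 1 (Per1), beside 4.81%. The 10 genes had a median of 4.5 such peaks and all genes a median of 2, so more sequence was searched per gene.

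In windows of equal length the counts were smaller. Within 100 bases of the summit of the strongest promoter peak of replicate 1, an E-box was found in 2 of 10 genes (Per1 and Nr1d1), beside 6.39% of genes, and a D-box in 2 (Per2 and Nr1d1), beside 0.292%. A variant E-box and a ROR/REV-ERB element were each found in 1, in both cases Clock, beside 3.23% and 3.0%, and a CRE in 0, beside 2.14%. Around the summits of replicate 2 an E-box was found in 1 gene (Nr1d1), beside 5.99% of genes, and a D-box in 0, beside 0.224%. A variant E-box was found in 1 (Clock), beside 3.41%. For the ROR/REV-ERB element the number was 2 (Clock and Dbp), beside 3.21%, and for the CRE 0, beside 1.93%. RefSeq promoter windows, 250 bases before to 50 after a start, were at hand for 9 of the 10 genes, all but Per2. They held an E-box in Per1 and Cry1, beside 8.09% of genes, a variant E-box in Cry1, Cry2 and Nr1d1, beside 5.44%, and a ROR/REV-ERB element in Arntl, beside 7.35%. D-boxes and CREs were found in 0 of the 9, beside 1.23% and 2.03%. These numbers leave out Per2. Its D-box 125 bp upstream of the first annotated start site and its variant E-box 5 bp past it fall within such distances.

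Several of the matches fell in short interruptions of the histone marks. Where adjacent peaks of a mark at a promoter were up to 500 bp apart, the gap was examined in each list. There were 18 such gaps at 7 of the 10 genes. Of these gaps 13 overlapped an ATAC-seq peak of the same replicate number, 9 held its summit and 12 held a match. For the 7 genes and the 13 gaps no share over all protein-coding genes was computed. Gaps in the same place in different lists were counted in each. A match counted anywhere in a gap, also outside ATAC-seq peaks. The H3K4me3 gap of Cry2 in replicate 1, for example, held 2 matches and overlapped no ATAC-seq peak.

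At Nr1d1 the H3K4me3 peaks were interrupted for 249 bp in replicate 1 and 353 bp in replicate 2 in an intron, and H3K27ac for 258 bp in replicate 2. The ATAC-seq peak chr11:98773661-98774246 of replicate 1 covered that place, and the gaps held 2, 3 and 2 matches. None of these Nr1d1 gaps held an ATAC-seq summit, and the E-box at 1174 bp lay outside them. At Per1 H3K27ac was interrupted upstream of the start for 292 and 411 bp in the 2 replicates, each time over the ATAC-seq summit and both upstream E-boxes. At Dbp the H3K4me3 of replicate 2 was interrupted for 248 bp over the ROR/REV-ERB elements and for 183 bp over 2 of the 3 intronic matches. In replicate 1 the H3K4me3 peak of Dbp ran through both places.

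An ATAC-seq summit was found in 0 of 3 gaps of H3K4me3 in replicate 1 and 5 of 6 in replicate 2, where 16.9% and 30.3% of such gaps in all protein-coding promoters held one. For H3K27ac the numbers were 2 of 4 and 2 of 5, beside 38.8% and 47.4%. A match of any of the 5 motifs lay in 2 of 3 and 5 of 6 gaps of H3K4me3, beside 14.3% and 16.1% of all gaps, and in 2 of 4 and 3 of 5 gaps of H3K27ac, beside 15.8% and 16.4%. With so few gaps these shares are descriptions of the named promoters.

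**Figure D2:**
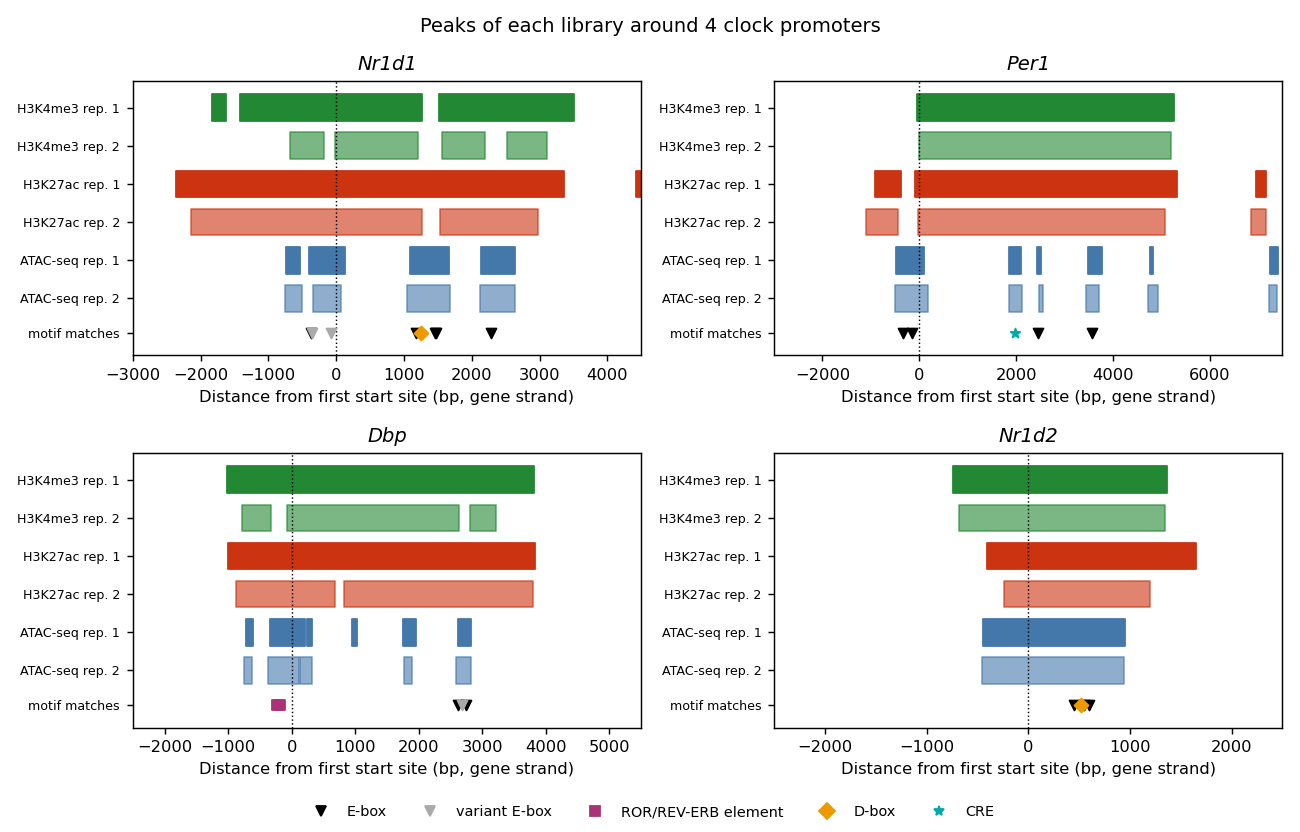
Peaks of H3K4me3, H3K27ac and ATAC-seq (rows, 1 per replicate) at Nr1d1, Per1, Dbp and Nr1d2, drawn as bars against the distance from the first start site in bp along the strand of the gene, with the dotted line at that start. Symbols in the lowest row mark motif matches in promoter ATAC-seq peaks found in both replicates. The H3K4me3 bars of Nr1d1 break in both replicates over part of the ATAC-seq peak that holds E-boxes at 1174, 1454 and 1469 bp. The E-box at 1174 bp lies outside the breaks. Per1 and Dbp are covered for over 4 kb in replicate 1.

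Away from promoters the genes differed widely. A distal peak was defined as a peak more than 3 kb from every annotated start site of any gene, and it was counted when a peak of replicate 1 overlapped one of replicate 2. Distal ATAC-seq peaks were found at 9 of the 10 genes, beside 68.3% of protein-coding genes, and distal H3K27ac peaks at 6, beside 17%. There were 102 and 30 of them. The only distal H3K27ac peaks of Per1 and Dbp lay nearest to the start sites of Borcs6 and Ntn5, and 23 of the 30 had as their nearest coding gene the one they were counted for. Rora held 49 and 13, Arntl 17 and 5, and Nr1d1 9 and 9. Clock had 2 distal ATAC-seq peaks and no distal H3K27ac peak, and Nr1d2, the gene with the highest promoter H3K27ac fold, had neither.

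Length bears on these numbers, since Rora is the longest of the 10 genes. Per 100 kb of gene and flanks Rora held 5.87 distal ATAC-seq and 1.56 distal H3K27ac peaks, at percentiles 87.4 and 95.3 of protein-coding genes, whereas its numbers stood at percentile 100. Nr1d1 held 8.38 of each per 100 kb, at percentiles 94.8 and 100 after rounding. Arntl held 8.23 and 2.42, at percentiles 94.5 and 98.2.

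**Figure D3:**
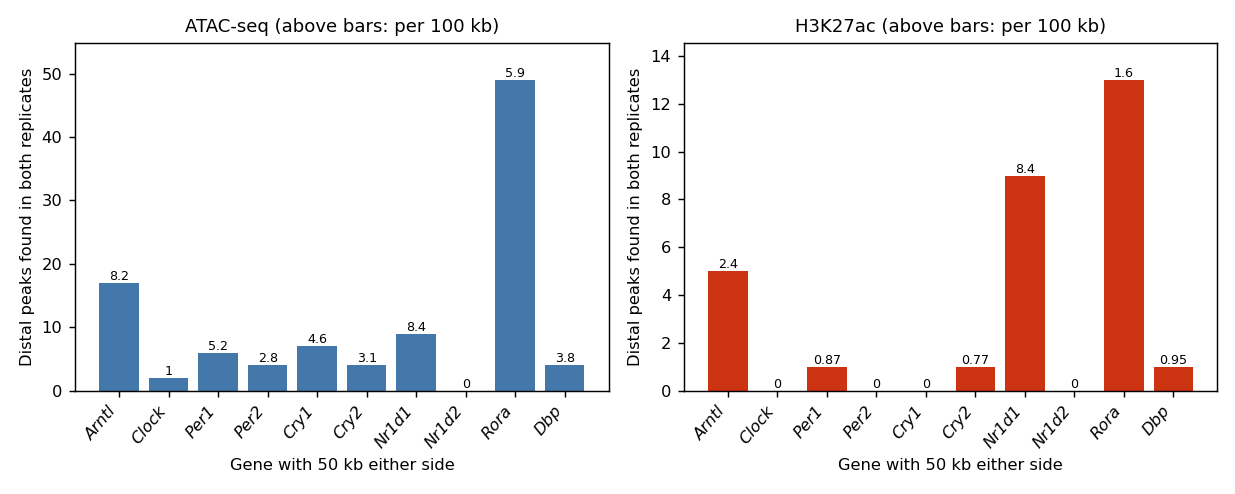
Number of distal ATAC-seq peaks (left) and distal H3K27ac peaks (right) found in both replicates in each gene and 50 kb either side, with the number per 100 kb above each bar. Rora has the most of both, 49 and 13, and Nr1d1 the most per 100 kb, 8.38 of both.

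All 13 distal H3K27ac peaks of Rora lay inside the gene, and its own start sites were the nearest of any coding gene for each. They fell in 3 stretches, 117.8 to 186.9 kb, 438.7 to 480.8 kb and 621.5 to 685.8 kb past the first start site. Their folds were modest, from 3.45 to 8.81 in replicate 1 and from 3.76 to 7.36 in replicate 2, and 8 overlapped ATAC-seq peaks in both replicates. In replicate 1 the strongest was chr9:69339403-69340628 at 685.8 kb, with H3K27ac folds of 8.81 and 6.62 and ATAC-seq folds of 10.4 in both replicates. In replicate 2 the strongest was the peak at 160.2 kb, chr9:68812431-68814583, with H3K27ac folds of 8.15 and 7.36 and ATAC-seq folds of 14.6 and 15.7. The peak at 685.8 kb and its neighbour at 685.2 kb overlapped the same peak of replicate 2. A site at 471.6 kb also had H3K4me3 peaks in both replicates, at folds of 8.79 and 4.41. Past the end of Rora, the promoter of Ice2 had an H3K27ac fold of 32.2 and 30.5, above every Rora peak.

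The 2 tallest ATAC-seq peaks of the Rora region were in replicate 1 alone. A peak of 123 bp at 260.2 kb had a fold of 37.2, and a peak of 118 bp at 760.5 kb, outside the gene, a fold of 49.0. A lower one of 116 bp at 180.9 kb, with a fold of 20.65, was also without a counterpart. No histone peak of any list overlapped the 3 places.

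**Figure D4:**
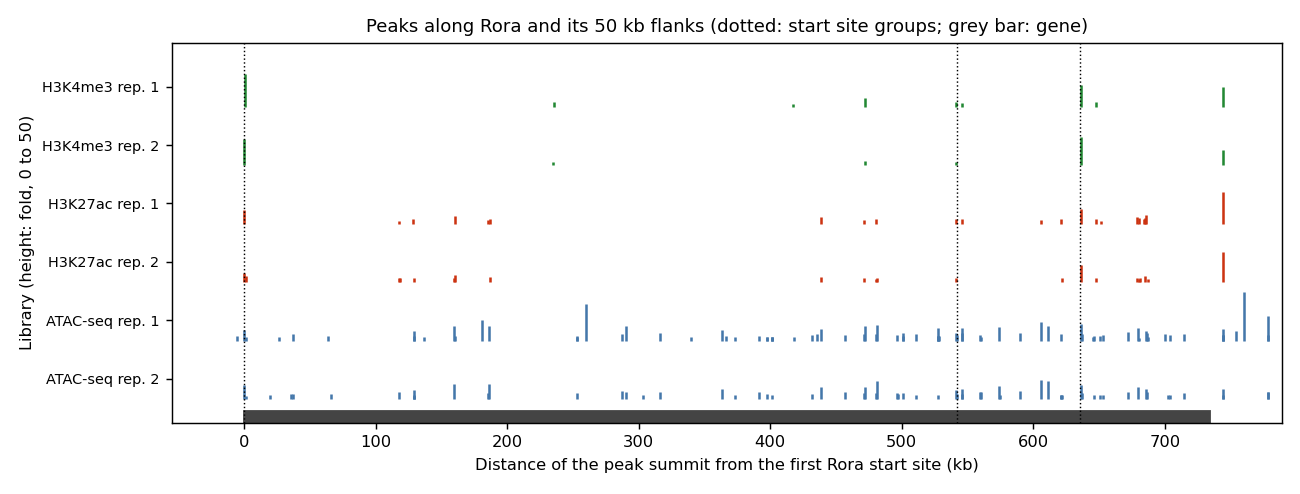
Peak summits along Rora and 50 kb either side, by distance from the first start site in kb, with a row per library, line height giving fold enrichment on a scale of 0 to 50, dotted lines at the 3 groups of start sites and the gene as a grey bar. H3K4me3 stands at the first and the most downstream start sites in both replicates, distal H3K27ac peaks found in both replicates fall in 3 stretches between 117.8 and 685.8 kb, H3K27ac also stands at the start sites and beyond the gene at Ice2, and the tall ATAC-seq lines at 260.2 and 760.5 kb are in replicate 1 only.

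Upstream of Nr1d1 stood a strong distal element. The H3K27ac peak chr11:98782320-98784601, with its summit 7.9 kb upstream of the start, had folds of 22.2 and 19.5, at percentiles 99.7 and 99.6 of all distal H3K27ac peaks. ATAC-seq peaks under it had folds up to 9.69 and 11.7, and H3K4me3 was present in both replicates. It was 1 of 7 distal H3K27ac peaks between 5.8 and 14.1 kb upstream, among which 4 lay nearer to Nr1d1 than to the start of any other coding gene and 3 nearer to Msl1. Of these 7 peaks of replicate 1, the 2 nearest to Nr1d1 overlapped the same peak of replicate 2. The remaining 2 peaks lay nearest to Thra, on the far side of the gene. A distal ATAC-seq peak at 8.2 kb upstream held an E-box, another at 13.8 kb upstream held 2, and a place 27.7 kb downstream near Thra, held 1.

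The 5 distal H3K27ac peaks of Arntl lay in the gene between 7.5 and 13.8 kb past the first start site. The strongest, chr7:113216255-113217098, had folds of 11.3 and 10.7, at percentiles 97.1 and 96.7 of distal H3K27ac peaks, and ATAC-seq folds of 7.82 and 7.52. An ATAC-seq peak over the weakest of them reached 17.8 and 17.7. The most open place of the Arntl region was another, 53.2 kb past the first start site, with ATAC-seq folds of 29.3 and 25.4 and no histone peak over it. Cry2 had 1 distal H3K27ac peak, in the gene 9.8 kb past the first start site, with folds of 7.66 and 4.41. In replicate 1 it covered an ATAC-seq peak, chr2:92423746-92424031, that held 2 E-boxes and a ROR/REV-ERB element, whereas the narrower peak of replicate 2, chr2:92424096-92424779, began past the end of it. Of all 30 distal H3K27ac peaks, 18 overlapped ATAC-seq peaks in both replicates, beside 75.5% of all such peaks in the genome.

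H3K27me3 was called at few of these promoters, near the share of all protein-coding genes. Arntl had 1 promoter peak, in replicate 2 only, of 94 bp with a fold of 3.76 and a -log10 q of 1.51, and another small peak lay 3.4 kb upstream. With a peak in either replicate 1 of 10 genes was called, beside 8.49% of protein-coding genes. The Dbp region held 1 H3K27me3 peak in replicate 1 and 3 in replicate 2, all nearest to the start of Car11, and none of replicate 1 overlapped one of replicate 2. The other 8 regions held none in either list. The share of all gene regions without such a peak was not computed.

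Of 21 other genes of the clock, including its kinases, ligases and paralogs, 21 had promoter ATAC-seq peaks in both replicates, 21 H3K4me3 and 17 H3K27ac, and 0 had H3K27me3 in both. The 4 without H3K27ac in both replicates were Arntl2, Rorb, Hlf and Fbxl21. Arntl2, the paralog of Arntl, had H3K4me3 at 12.2 and 10.0 and a strongly open promoter, at 24.6 and 19.5. Rorb, a paralog of Rora, had H3K4me3 at 10.2 and 7.01. Hlf, a relative of Dbp, had H3K4me3 at 11.5 and 10.7 and H3K27ac in replicate 1 alone, at 6.22. Fbxl21 had H3K4me3 at 16.3 and 12.8. H3K27me3 was called in replicate 1 alone at Rorb, with a fold of 3.75, and at Hlf, with a fold of 3.38, at -log10 q of 0.93 and 0.45.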

How the data were processed

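The 8 lists came from 2 replicates each of ATAC-seq, H3K4me3, H3K27ac and H3K27me3 in sorted MuSCs. Per the study's methods and the submitters' processing notes, reads were trimmed (Trim Galore 0.6.10), aligned to mm10 (BWA 0.7.17-r1188), cleared of duplicates, low mapping quality and blacklisted regions (SAMtools 1.5 and companion tools), shifted for Tn5 in ATAC-seq (deepTools 3.5.5), and peaks were called per library with MACS2 2.2.6. Narrow peaks hide breadth, so broad marks appear split. The deposited values are a ratio (fold enrichment), -log10 p and -log10 q, and a score computed by the authors' peak caller. H3K27me3 was called at a looser limit (smallest -log10 p 3.01, -log10 q down to 0), so its lists are less strict than the others.

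Start sites came from GENCODE M21. Any overlap of 1 bp counted. Code was written in Python 3.11.15 with pandas 2.3.3 and checked on simulated intervals and planted motifs. No test was run, since 1 condition allows no contrast, and replicates are separate libraries that the labels do not tie to separate animals. Genes were named by role. For the other clock genes, counts were given with values for those lacking an active mark. An item of that list is not reported here. The members and lists were chosen with earlier results of these data known, and the comparisons of gaps and of total widths after seeing the peaks. Alternatives were promoters of 1 kb, coding start sites, -log10 q of at least 5, summits, single replicates, flanks of 20 and 100 kb, other overlaps and q in place of fold.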

Additional observations from a re-analysis of the deposited data

How the results depend on the processing

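The calls of ATAC-seq, H3K4me3 and H3K27ac at 10 of 10 promoters were the same under all 7 alternatives tried. For H3K27me3 the 0 genes became 1, Arntl, with a peak in either replicate, and without a replicate the number ran from 0 to 1. With a -log10 q of at least 5 the 30 distal H3K27ac peaks fell to 16. Without a replicate they ran from 34 to 44, and the 102 distal ATAC-seq peaks from 110 to 144. The other alternatives kept both numbers within 1.5 times. By -log10 q in place of fold enrichment only 3 of 10 genes kept their place in the ATAC-seq order to within 1 place, and 10 did for both histone marks. Without a replicate 9 to 10 genes kept it for ATAC-seq and for H3K27ac and 10 for H3K4me3. Centred on the summits of replicate 2, an alternative chosen after seeing the data, the E-box fell from 2 genes to 1, the D-box from 2 to 0 and the ROR/REV-ERB element rose from 1 to 2. The cause of these shifts was not tested.

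No paired analysis was possible because no result comes from a test. Peak lists carry no depth, so the absence of a call cannot be told from too few reads. The time of day was not given.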

Other observations

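Tall ATAC-seq peaks of replicate 1 often had no counterpart in replicate 2. Of 6483 ATAC-seq peaks with a fold of at least 20 in replicate 1, 42.4% overlapped a peak of replicate 2. All 1980 such peaks of replicate 2 overlapped one of replicate 1. Among ATAC-seq peaks of any fold, 62.9% of replicate 1 and 84.7% of replicate 2 overlapped a peak of the other replicate. In the 10 gene regions 7 of 11 such peaks of replicate 1 and 4 of 4 of replicate 2 were shared. The 4 that were not shared were 3 in the Rora region and a peak of 108 bp with a fold of 23.5 in the flank of Clock.

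Distal open chromatin held matches as well. In the 102 distal ATAC-seq peaks of the 10 genes (18919 bases) E-boxes were at 0.37 per kb, beside 0.205 in all distal ATAC-seq peaks. Variant E-boxes were at 0.264 beside 0.154, ROR/REV-ERB elements at 0.476 beside 0.357 and D-boxes at 0.0529 beside 0.0236. These rates rest on few matches, namely 7 E-boxes, 5 variant E-boxes, 9 ROR/REV-ERB elements and 1 D-box, at Rora. A distal peak of Cry1, 23.2 kb past the start with a fold of 17.3, held 2 ROR/REV-ERB elements, and 3 distal peaks of Arntl, at 10.1 kb upstream and 35.5 and 43.4 kb downstream of the first start site, held 1 each. CREs were in 0 of these peaks, beside 0.0269 per kb in all.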
